A study of Mus musculus with 15 samples.

Results

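The 36 genes described here encode the enzymes that build cholesterol and fatty acids, together with the regulators that set their transcription. They were listed by name and are 36 of the 36528 gene IDs in the count tables. The list holds 18 enzymes of the sterol branch, 13 of the fatty acid branch, and 5 genes for control and sterol transport. RNA was sequenced from cells of the mouse cortex that were sorted for green fluorescent protein made from the Cx3cr1 gene, which microglia, the resident macrophages of the brain, use at a high level. The 15 samples were 9 from PS2APP mice, which carry human transgenes for presenilin 2 and the amyloid precursor protein and model Alzheimer's disease, and 6 from non-Tg mice, which lack these transgenes. All 15 carried the Cx3cr1::GFP reporter and were taken at 14 months (4 PS2APP, 2 non-Tg) or 15 months (5 PS2APP, 4 non-Tg). The labels do not say whether each sample is a separate mouse, so each p-value reflects only how far these samples spread, which may in part be technical. The sex of the mice and the promoters that drive the transgenes are not given in the labels.

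Cholesterol is made from acetyl-CoA through the mevalonate pathway. Its early steps make isoprenoid units, squalene is then closed into lanosterol, and the late steps turn lanosterol into cholesterol. Fatty acids start from the same acetyl-CoA: acetyl-CoA carboxylase makes malonyl-CoA, fatty acid synthase joins the units into palmitate, and elongases and desaturases modify the chain. Both branches are known targets of the SREBP transcription factors, which the proteins Scap and Insig hold in or release from the endoplasmic reticulum as sterol levels vary. In the brain most cholesterol is made locally, since plasma lipoproteins do not cross the blood-brain barrier.

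Each sample held between 3664742 and 8455237 counted reads (median 5867848). The cell type label was checked against 12 microglia markers. They summed to between 29593 and 45787 CPM (counts scaled to library size) in PS2APP and between 37328 and 50405 CPM in non-Tg. Of the 12, 0 were called, 11 had a lower estimate in PS2APP and 1 a higher one. At an unadjusted edgeR p under 0.05, 4 were lower and 0 higher, where 5.95% of all genes tested were lower and 5.73% higher. Markers of other cells were present at lower levels, and some of them differed with genotype. Neuron markers summed to 64.5 to 386 CPM in PS2APP and 257 to 514 CPM in non-Tg, and 2 of 10 tested were called lower. Oligodendrocyte markers, of a cell type rich in sterol enzymes, summed to 122 to 276 CPM in PS2APP and 194 to 788 CPM in non-Tg, with 0 of 7 tested called. Astrocyte markers summed to 447 to 869 CPM in PS2APP and 538 to 1285 CPM in non-Tg, and of 10 tested Gfap was called higher and Slc1a2 lower. Endothelial and mural markers summed to 42.4 to 81.3 CPM in PS2APP and 57.6 to 109 CPM in non-Tg, and of 8 tested Flt1 was called higher and Pecam1 lower. Border macrophage and blood myeloid markers summed to 95.1 to 276 CPM in PS2APP and 68.5 to 259 CPM in non-Tg, with 0 of 6 tested called. Oligodendrocyte precursor markers summed to 10.8 to 37.9 CPM in PS2APP and 4.42 to 11.8 CPM in non-Tg, with 1 of 2 tested called higher. That 1 was Cspg4, at 14.9 CPM in PS2APP and 0.831 CPM in non-Tg on average, while Pdgfra averaged 0.620 CPM in PS2APP and 0.922 CPM in non-Tg, so the sum follows a single gene. Non-Tg sample 9 held the highest oligodendrocyte sum and also 407 CPM of choroid plexus markers, against 4.46 to 32.3 CPM across the PS2APP samples, and 2 of 2 choroid plexus markers tested were called lower in PS2APP. No marker list had a gene at 0 in every sample. Apart from the fits with marker covariates given below, the part of these cells in the members' values was not tested. Xist, an RNA of female cells, was low in 3 libraries. They were PS2APP sample 14 (16.7 CPM) and non-Tg samples 12 (20.8 CPM) and 13 (47.0 CPM). The Y-linked gene Ddx3y stood at 110, 99.2 and 231 CPM in them, in that order. All other samples had at least 3676 CPM of Xist and at most 0.681 CPM of Ddx3y. These 3 thus read as male, and sex was not a term of the fit.

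The members were read at very different depths. Of the 36, 32 had enough reads to be tested, and they are the base of every count of calls. The 4 left out were the isoprenoid enzymes Idi1 (16 reads over the 15 samples) and Fdps (64), the acetyl-CoA carboxylase of the mitochondrial surface Acacb (84) and the malic enzyme Me1 (81), which supplies NADPH. Of the Acacb reads, 14 were in the 9 PS2APP and 70 in the 6 non-Tg samples, where sample 9 alone stood at 8.53 CPM. The counts are of uniquely aligned reads, so stretches that a gene shares with another gene are undercounted. Of the 50-base windows of the Fdps transcript 86.4% occur in other genes, mostly pseudogenes, as do 30.5% of those of Idi1 and 32.8% of those of Me1. The read length is not stated, and 50 bases is a chosen length. Reads of that length could not be unique over most of the Fdps transcript. Over most of the Idi1 and Me1 transcripts they could.

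On the length-scaled level (the authors' RPKM, reads per length of gene and size of library) Scd2, Fdft1, Fads1 and Acly led. Scd2, a desaturase that puts the first double bond into stearate, averaged 9.71 RPKM in PS2APP and 8.28 RPKM in non-Tg. Fads1, the desaturase that completes arachidonate, averaged 7.06 RPKM in PS2APP and 8.65 RPKM in non-Tg. Acly, which cuts citrate into cytosolic acetyl-CoA, averaged 6.95 RPKM in PS2APP and 7.48 RPKM in non-Tg. These were the highest 3 of the fatty acid branch. In the sterol branch the highest 3 were Fdft1 (squalene synthase) with 8.16 RPKM in PS2APP and 6.38 RPKM in non-Tg, Msmo1 (which removes methyl groups from lanosterol derivatives) with 6.18 RPKM in PS2APP and 4.39 RPKM in non-Tg, and the sterol isomerase Ebp with 3.59 RPKM in PS2APP and 4.12 RPKM in non-Tg. Summed over all its members, the sterol branch held 34.1 RPKM in PS2APP (28.0 to 50.4) and 30.3 RPKM in non-Tg (23.3 to 39.0). The fatty acid branch held 36.8 RPKM in PS2APP (29.7 to 43.7) and 37.9 RPKM in non-Tg (34.3 to 42.7), so both branches were read at similar total levels and both sums overlapped between genotypes.

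**Figure D1:**
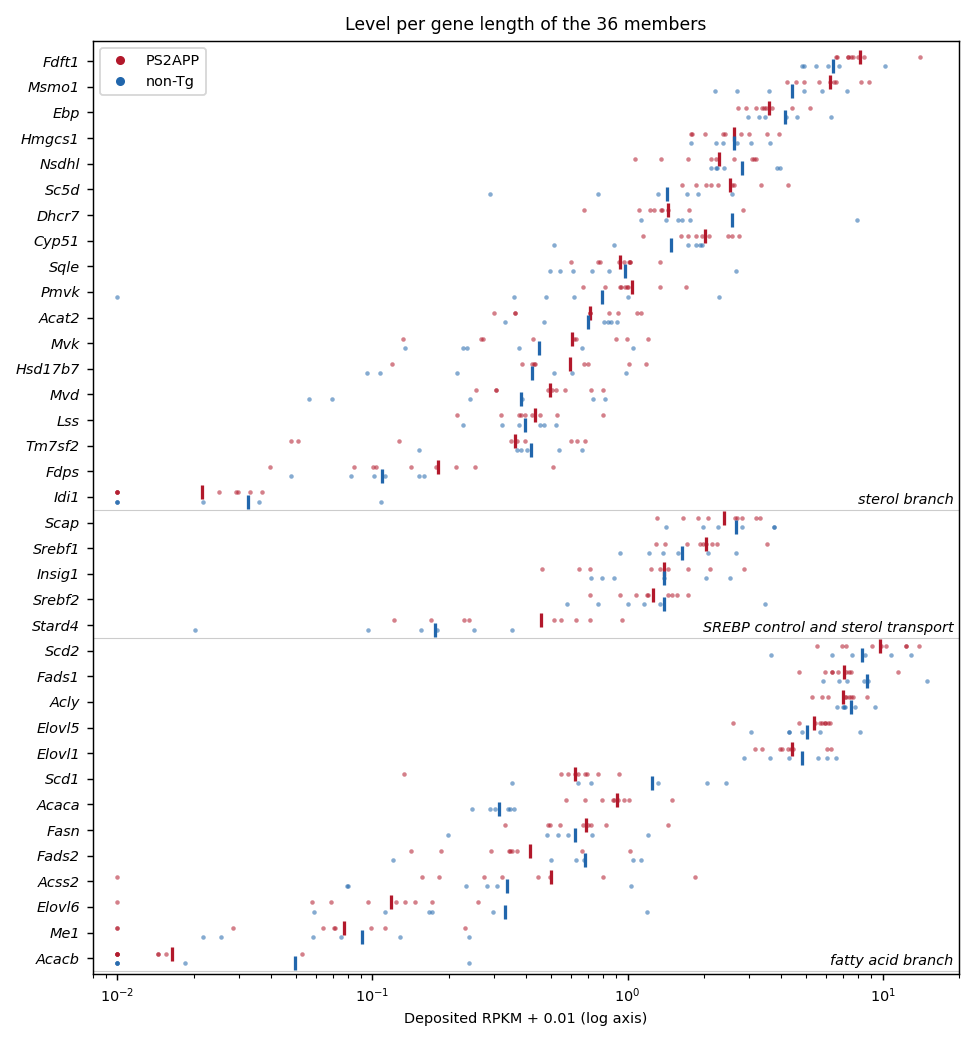
Deposited RPKM of the 36 members on a log axis (0.01 added), by branch, with PS2APP samples in red above non-Tg samples in blue for each gene and a bar at each mean. Scd2, Fdft1, Fads1 and Acly sit highest, and Idi1, Acacb, Me1 and Fdps lowest.

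A single member of the 36 passed the test of PS2APP against non-Tg. Acaca encodes acetyl-CoA carboxylase of the cytosol, the enzyme of the committed step of fatty acid synthesis. It stood at 21.4 CPM in the lowest, 33.4 in the median and 57.2 CPM in the highest of the 9 PS2APP samples, against 8.87, 11.9 and 13.2 CPM in the 6 non-Tg samples. All 9 PS2APP samples lay above all 6 non-Tg samples, PS2APP sample 8 was the highest, and the non-Tg samples lay close together. The means were 34.4 ± 10.1 CPM in PS2APP and 11.5 ± 1.65 CPM in non-Tg (SD), and Acaca rose in PS2APP, with a log2 fold change of 1.57 ± 0.24 (SE; 95% interval 1.09 to 2.06; edgeR quasi-likelihood test, adjusted p = 4.8e-04). Over all 13994 genes tested the call rate was 1.18% (134 genes higher, 0.958%, and 31 lower), and 0.636% had groups that did not overlap, so 1 called member of 32 is near what the background holds. In bulk RNA, fewer cells of a type and less RNA per cell cannot be told apart.

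Acaca (NCBI Gene 107476) spans chr11:84129635-84401651 in GRCm38. It was higher at both ages, with means of 34.7 CPM in PS2APP and 10.8 CPM in non-Tg at 14 months, and of 34.2 CPM in PS2APP and 11.9 CPM in non-Tg at 15 months. The RPKM was low, at 0.902 in PS2APP and 0.303 in non-Tg, and 1644 reads in PS2APP and 431 reads in non-Tg lie behind these means. The log2 fold change stayed between 1.45 and 1.62 when each sample was left out in turn, with an adjusted p of at most 0.003. It was 1.69 ± 0.43 at 14 months alone, where 2 non-Tg samples remained and the call was lost (edgeR adjusted p = 0.143). With a covariate for neuron markers (their mean log2 CPM per sample) it was 1.01 ± 0.31 and not called (edgeR adjusted p = 0.705). That score lay between 1.39 and 3.58 in PS2APP and between 3.33 and 4.28 in non-Tg. The score thus nearly separates the genotypes itself, and in that fit 20 genes in all were called. Of the 50-base windows of the Acaca transcript, 52.6% also occur in the processed pseudogene Gm5182. No counts were matched to Gm5182, so its part in the Acaca values was not tested.

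No other enzyme before or at palmitate was called. Acly had means of 123 ± 18.6 CPM in PS2APP and 132 ± 17.97 CPM in non-Tg (SD), with a log2 fold change of -0.10 ± 0.14 (95% interval -0.40 to 0.20). The interval excludes a change of the size of Acaca. Fasn, the fatty acid synthase that uses the product of Acaca, averaged 25.4 ± 11.9 CPM in PS2APP and 22.7 ± 12.4 CPM in non-Tg, with 0.29 ± 0.32 (95% interval -0.37 to 0.96). Acss2, which makes acetyl-CoA from acetate, averaged 5.88 ± 6.54 CPM in PS2APP and 3.90 ± 4.26 CPM in non-Tg, with 0.67 ± 0.76. Its 95% interval of -0.90 to 2.23 includes the value of Acaca.

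The stearoyl desaturases pointed in different directions. Scd1 stood at 2.24, 11.3 and 16.8 CPM (lowest, median, highest) in PS2APP, against 6.21, 18.2 and 43.8 CPM in non-Tg. No PS2APP sample lay above the non-Tg median, but the groups overlapped, because non-Tg samples ranged widely. The highest were non-Tg samples 13 (43.8 CPM) and 9 (37.0 CPM). With a sample left out, the log2 fold change of Scd1 ran from -1.24 (without non-Tg sample 2) to -0.76 (without non-Tg sample 13). With all samples it was -1.05 ± 0.38, with an unadjusted p of 0.0121, and did not pass (edgeR adjusted p = 0.238). Scd2 stood at 113, 201 and 281 CPM in PS2APP, against 74.7, 163 and 263 CPM in non-Tg, with 0.21 ± 0.23 (adjusted p = 0.784). The ranges of Scd2 covered almost the same values. Only 4.66% of the 50-base windows of Scd1 and 4.01% of those of Scd2 are shared with other genes. Reads of that length would thus mostly be told apart.

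Elongases and polyunsaturated desaturases did not pass either. Elovl6, which lengthens palmitate to stearate, stood at 0, 2.65 and 5.79 CPM in PS2APP, against 1.14, 3.66 and 27.5 CPM in non-Tg, at -1.50 ± 0.74 on the log2 scale (edgeR adjusted p = 0.438). The highest value is that of non-Tg sample 9, and without it the log2 fold change was -0.51 ± 0.65. The 0 is PS2APP sample 1, where 3 reads, the limit that a count of 0 allows, would be 0.638 CPM. Fads1 stood at 64.0, 90.3 and 156 CPM in PS2APP, against 78.9, 106 and 205 CPM in non-Tg (-0.31 ± 0.21, adjusted p = 0.612). Its highest value was again in non-Tg sample 9, and without it the log2 fold change was -0.075 ± 0.18. Fads2, the desaturase that starts polyunsaturated fatty acid synthesis, averaged 2.29 ± 1.55 CPM in PS2APP and 3.80 ± 2.10 CPM in non-Tg (-0.78 ± 0.54, adjusted p = 0.621). Elovl1, for very long chains, and Elovl5, for polyunsaturated chains, had log2 fold changes of -0.063 and 0.084.

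No member of the sterol branch was called by edgeR, DESeq2 or limma-voom, though DESeq2 gave no adjusted p for Dhcr7. At an unadjusted p under 0.05, 2 of the 16 tested members were higher and 0 lower, where 5.73% of all genes were higher and 5.95% lower. The 2 were late-pathway enzymes. Sc5d, the desaturase that makes 7-dehydrocholesterol, stood at 14.4, 19.96 and 38.1 CPM (lowest, median, highest) in PS2APP, against 2.49, 13.2 and 22.8 CPM in non-Tg. All 9 PS2APP samples lay above the non-Tg median and 4 above every non-Tg sample, and the log2 fold change was 0.81 ± 0.33 (SE; edgeR adjusted p = 0.301). Msmo1 stood at 28.9, 43.0 and 61.1 CPM in PS2APP, against 15.0, 28.8 and 49.8 CPM in non-Tg, with 0.51 ± 0.24 (adjusted p = 0.407). Again all 9 PS2APP samples lay above the non-Tg median, but the ranges overlapped over most of their length.

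Other late enzymes differed by less than the spread between samples or by 1 library. Cyp51, the lanosterol demethylase, stood at 18.7, 31.5 and 44.4 CPM in PS2APP, against 8.28, 28.9 and 31.95 CPM in non-Tg (0.44 ± 0.26, edgeR adjusted p = 0.543). Dhcr7, which converts 7-dehydrocholesterol to cholesterol, stood at 7.98, 16.2 and 34.4 CPM in PS2APP, against 13.6, 19.2 and 96.1 CPM in non-Tg (-0.81 ± 0.41, adjusted p = 0.455). The 96.1 CPM is that of non-Tg sample 11, and without it the log2 fold change was -0.078 ± 0.27. Thus Sc5d and Dhcr7, which act on successive intermediates, had estimates of opposite sign with all 15 samples, and the negative one rested on that library. Non-Tg sample 11 was also the lowest for Sc5d (2.49 CPM), and without it the log2 fold change of Sc5d was 0.61. Ebp averaged 23.5 ± 5.13 CPM in PS2APP and 26.8 ± 7.88 CPM in non-Tg (-0.19 ± 0.22), or -0.031 without non-Tg sample 11. The remaining lanosterol-to-cholesterol enzymes had log2 fold changes of 0.42 (Hsd17b7), -0.30 (Nsdhl) and -0.40 (Tm7sf2), none of them called.

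No enzyme of the early steps or of squalene synthesis was called, and Hmgcs1, Acat2 and Sqle had estimates near 0. Hmgcs1, which makes HMG-CoA at the entry of the mevalonate pathway, averaged 36.2 ± 10.4 CPM in PS2APP and 36.05 ± 8.83 CPM in non-Tg, with a log2 fold change of 0.0022 and a 95% interval of -0.44 to 0.45. Acat2, the cytosolic thiolase, had -0.026, but 45.9% of its 50-base windows are shared with Acat3. The mevalonate kinase Mvk (0.46), the phosphomevalonate kinase Pmvk (0.69 ± 0.58) and the decarboxylase Mvd (0.41) averaged 3.41 to 5.82 CPM in PS2APP and 2.60 to 4.42 CPM in non-Tg, and none was called. The value of Pmvk was 1.21 without non-Tg sample 11 and 0.30 without non-Tg sample 5. Sqle, the squalene epoxidase, averaged 9.58 ± 2.20 CPM in PS2APP and 9.998 ± 8.59 CPM in non-Tg (-0.0025 ± 0.40), and Lss, which closes squalene epoxide into lanosterol, had 0.14. Fdft1 stood at 96.2, 111 and 208 CPM in PS2APP, against 71.4, 85.4 and 150 CPM in non-Tg (0.34 ± 0.20, edgeR adjusted p = 0.533). All 9 PS2APP samples lay above the non-Tg median of Fdft1, and sample 8 stood far above the other 8. Fdft1 overlaps the cathepsin gene Ctsb by 774 bases and shares 19.9% of its 50-base windows with it. Ctsb averaged 4788 CPM in PS2APP and 2967 CPM in non-Tg (0.67 ± 0.21, adjusted p = 0.162), and its part in the Fdft1 value was not tested.

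**Figure D2:**
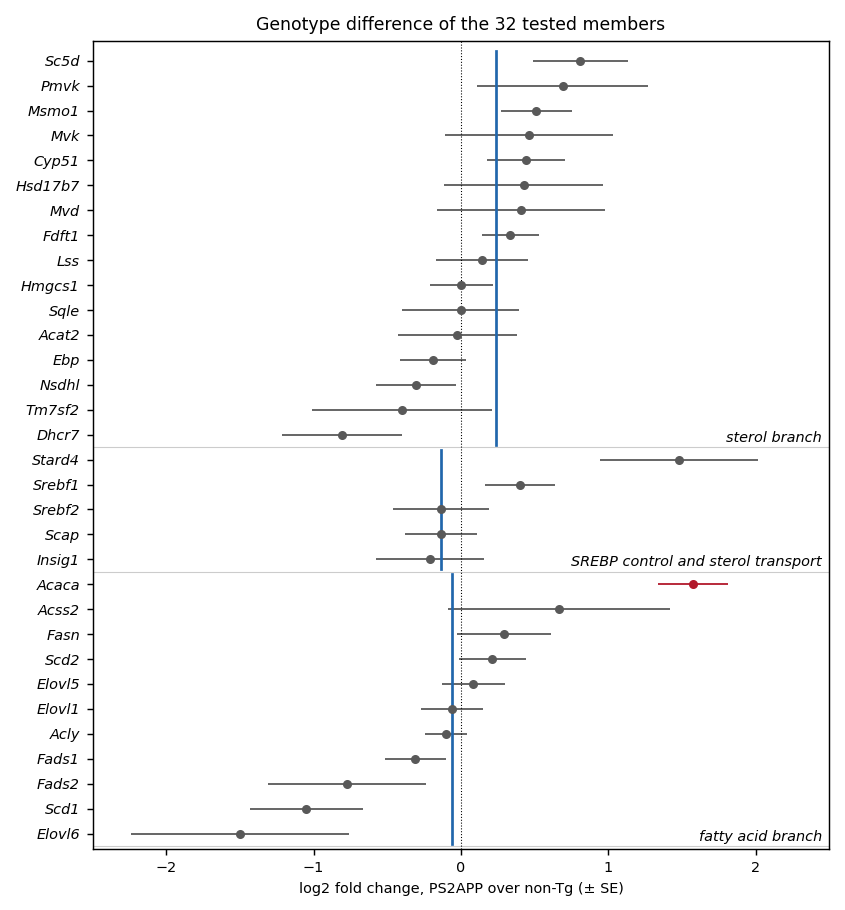
Log2 fold change of PS2APP over non-Tg with its standard error (bars) for the 32 tested members, by branch, with a blue line at each branch's median. Acaca, the called member in red, stands at 1.57, and the sterol and fatty acid medians lie at 0.24 and -0.063.

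The sequence at annotated starts of these genes was read for the sites that SREBP and its usual partner NF-Y are known to bind. RefSeq promoters of GRCm38.p6 (250 bases before to 50 after the start) were matched for 29 of the 36 members. Those of Fdps, Fdft1, Sqle, Stard4, Scd1, Scd2 and Fads1 were not matched. On either strand, the sterol regulatory element TCACNCCAC occurred in 1 of 29 (3.45%), that of Hmgcs1, against 1.44% of the 27025 genes with a promoter. Its shorter form TCACNCC occurred in 4 of 29 (13.8%), against 17.6% of all genes, and in 0 of 10 of the fatty acid branch. The NF-Y motif CCAAT occurred in 24 of 29 (82.8%), against 41.1% of all genes. It was in 14 of 15 sterol, 3 of 4 control and 7 of 10 fatty acid promoters. For each motif a gene counted if any of its listed windows matched. The CCAAT matches of Acacb, Me1 and Dhcr7, among others, lay only in windows inside their genes. The Sp1 motif GGGCGG occurred in 23 of 29 (79.3%), against 38.2%, with 14 of 15 in the sterol and 5 of 10 in the fatty acid branch. The 27025 genes include many with too few reads to be tested here, and the shares among tested genes were not computed. These are matches of letters and not binding sites.

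Of the members described above, 4 promoter windows are shown: the called gene Acaca, the synthase downstream of it, and 2 sterol enzymes, 1 with and 1 without the full sterol element. Each is written on its own strand from 5′ to 3′, and capitals mark TCACNCCAC and CCAAT on either strand. Acaca lies at chr11:84195188-84195487 (plus strand), inside the span of the gene, which begins at 84129635. This window holds neither motif, and the sequence before the first base of the gene was not read. The windows of some other members, Acacb among them, also lay inside their genes. Fasn lies at chr11:120824498-120824797 (minus strand) and holds 3 CCAAT matches, of which the pair on opposite strands overlap in CCAATTGG. Hmgcs1 lies at chr13:119690101-119690400 (plus strand) and holds 4 CCAAT matches and the sterol element that begins 137 bases before the start. Msmo1 lies at chr8:64733529-64733828 (minus strand) and holds 3 CCAAT matches.
Acaca promoter: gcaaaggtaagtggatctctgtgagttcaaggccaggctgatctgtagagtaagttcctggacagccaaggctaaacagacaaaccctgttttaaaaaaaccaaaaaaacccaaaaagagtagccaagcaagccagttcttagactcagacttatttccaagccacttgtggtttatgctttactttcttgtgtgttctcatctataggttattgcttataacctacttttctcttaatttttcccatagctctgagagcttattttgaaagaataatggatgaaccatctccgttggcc
Fasn promoter: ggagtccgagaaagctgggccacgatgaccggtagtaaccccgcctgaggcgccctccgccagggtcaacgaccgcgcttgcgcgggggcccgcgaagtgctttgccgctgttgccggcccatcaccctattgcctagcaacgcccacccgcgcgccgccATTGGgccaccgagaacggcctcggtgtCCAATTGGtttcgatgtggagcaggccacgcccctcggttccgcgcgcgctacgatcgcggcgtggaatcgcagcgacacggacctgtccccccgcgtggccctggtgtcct
Hmgcs1 promoter: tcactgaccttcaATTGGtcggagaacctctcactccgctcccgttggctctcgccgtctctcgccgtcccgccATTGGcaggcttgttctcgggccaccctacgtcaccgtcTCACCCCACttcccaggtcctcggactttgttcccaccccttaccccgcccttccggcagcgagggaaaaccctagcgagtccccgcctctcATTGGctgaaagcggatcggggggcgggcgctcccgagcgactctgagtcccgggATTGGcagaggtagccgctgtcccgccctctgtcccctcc
Msmo1 promoter: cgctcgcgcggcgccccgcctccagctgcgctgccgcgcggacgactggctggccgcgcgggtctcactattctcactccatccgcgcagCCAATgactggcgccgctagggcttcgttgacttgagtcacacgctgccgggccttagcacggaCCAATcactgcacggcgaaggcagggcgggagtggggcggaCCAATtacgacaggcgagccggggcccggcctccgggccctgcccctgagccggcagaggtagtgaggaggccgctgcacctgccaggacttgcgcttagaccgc
Beside these letters, Hmgcs1 stood at a log2 fold change of 0.0022, and Fasn and Msmo1 at 0.29 and 0.51 were not called. Acaca was the member that rose, but its window lies inside the gene. The letters before the first base of Acaca were not read, so whether they hold either motif is not known here.

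The 5 genes of control and sterol transport were not called either. Stard4, a carrier that moves sterols between membranes, stood at 2.25, 10.2 and 19.3 CPM (lowest, median, highest) in PS2APP, against 0.207, 3.18 and 6.93 CPM in non-Tg. Of the 9 PS2APP samples 8 lay above the non-Tg median and 5 above every non-Tg sample, and the log2 fold change was 1.48 ± 0.54 (edgeR adjusted p = 0.234; unadjusted p = 0.0116). Srebf1, the SREBP gene tied mostly to fatty acid synthesis, stood at 22.5, 34.2 and 62.1 CPM in PS2APP, against 16.1, 25.8 and 46.3 CPM in non-Tg (0.40 ± 0.24, adjusted p = 0.540). Srebf2, tied mostly to sterol synthesis, averaged 26.4 ± 6.99 CPM in PS2APP and 29.0 ± 22.3 CPM in non-Tg (-0.13 ± 0.33, adjusted p = 0.924). Non-Tg sample 11 held 72.9 CPM of Srebf2, and without it the log2 fold change was 0.38 ± 0.24 (adjusted p = 0.580), so its sign rested on 1 library. Insig1, which retains SREBP in the endoplasmic reticulum, averaged 13.7 ± 7.65 CPM in PS2APP and 13.7 ± 7.36 CPM in non-Tg (-0.21 ± 0.37, adjusted p = 0.886). Scap, the escort of SREBP, averaged 41.7 ± 12.3 CPM in PS2APP and 46.2 ± 16.6 CPM in non-Tg (-0.13 ± 0.25, adjusted p = 0.892). The sign of Insig1 also turned without non-Tg sample 11 (0.12), and that of Scap without non-Tg sample 5 (0.075).

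**Figure D3:**
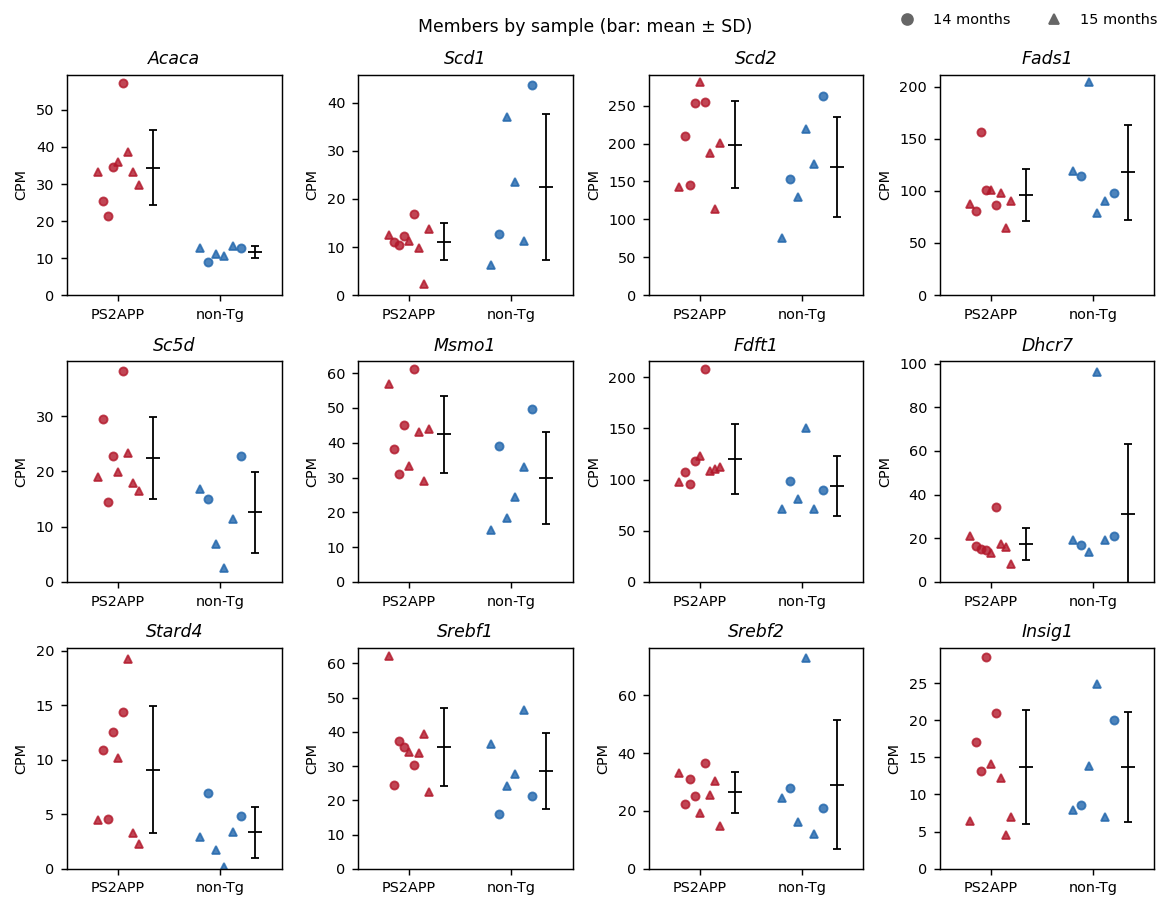
CPM of 12 members in each sample, with PS2APP left and non-Tg right, circles for 14 and triangles for 15 months, and lines for the mean and SD. The groups of Acaca do not overlap, while those of the other 11 genes do.

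Set side by side, the sterol branch had the higher median and the fatty acid branch the only call. Of 16 tested sterol members 10 had a positive log2 fold change, with a median of 0.24 and a range of -0.81 to 0.81. Of 11 tested fatty acid members 5 were positive, with a median of -0.063 and a range of -1.50 to 1.57. Over all genes tested 47.3% were positive and the median was -0.021. The difference between the branches carries no test here. The difference of the medians was 0.30 with all samples, 0.16 to 0.35 when each sample was left out in turn, -0.015 at 14 months alone and -0.029 with the neuron covariate, where the sterol median was -0.074.

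Averaged per sample over tested members, the sterol branch stood at 3.70 ± 0.21 mean log2 CPM in PS2APP (3.52 to 4.21) and 3.43 ± 0.13 in non-Tg (3.25 to 3.60; SD). Of the 9 PS2APP samples, 6 lay above every non-Tg sample. The fatty acid branch stood at 4.56 ± 0.34 in PS2APP (4.01 to 5.001) and 4.60 ± 0.24 in non-Tg (4.28 to 4.99), with 1 PS2APP sample above every non-Tg sample. Within a sample, the sterol mean minus the fatty acid mean was -0.86 ± 0.26 in PS2APP and -1.16 ± 0.33 in non-Tg, with overlap between the groups. The control genes stood at 4.34 ± 0.38 in PS2APP and 4.004 ± 0.18 in non-Tg, with 7 of the 9 PS2APP samples above every non-Tg sample. Their mean was thus higher in PS2APP while their median log2 fold change was -0.13, with Stard4 the 1 gene of the 5 with a large positive value.

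A single PS2APP library, sample 8, had the highest mean of the 15 samples for the sterol branch, the control genes (4.81) and the fatty acid branch (5.001). PS2APP sample 8 (14 months) was the highest of the 15 samples for 6 of the 16 sterol members and lay above the non-Tg median for 15 of them, with a branch mean of 4.21 against at most 3.76 in the other PS2APP samples. It was also above the non-Tg median for 8 of 11 fatty acid members. The same sample had the lowest neuron score, 1.39, and its part in the sterol values was not tested. Among non-Tg samples, sample 11 was the highest of all for 3 sterol members, and sample 2 for 4 fatty acid members.

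**Figure D4:**
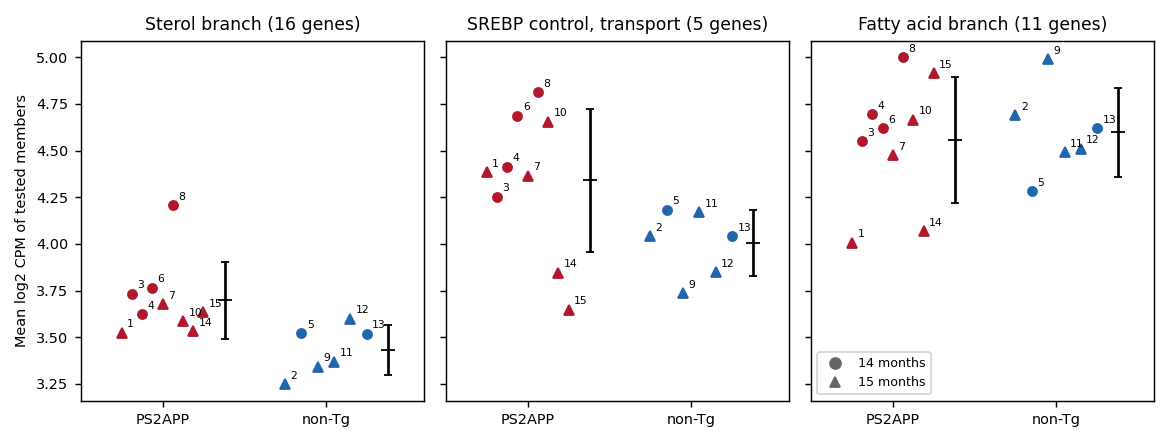
Mean log2 CPM over the tested members of each branch, 1 point per sample with its sample number, PS2APP left and non-Tg right. In the sterol panel PS2APP sample 8 stands alone at 4.21, and in the fatty acid panel the groups overlap, with PS2APP samples 1 and 14 lowest.

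**Figure D5:**
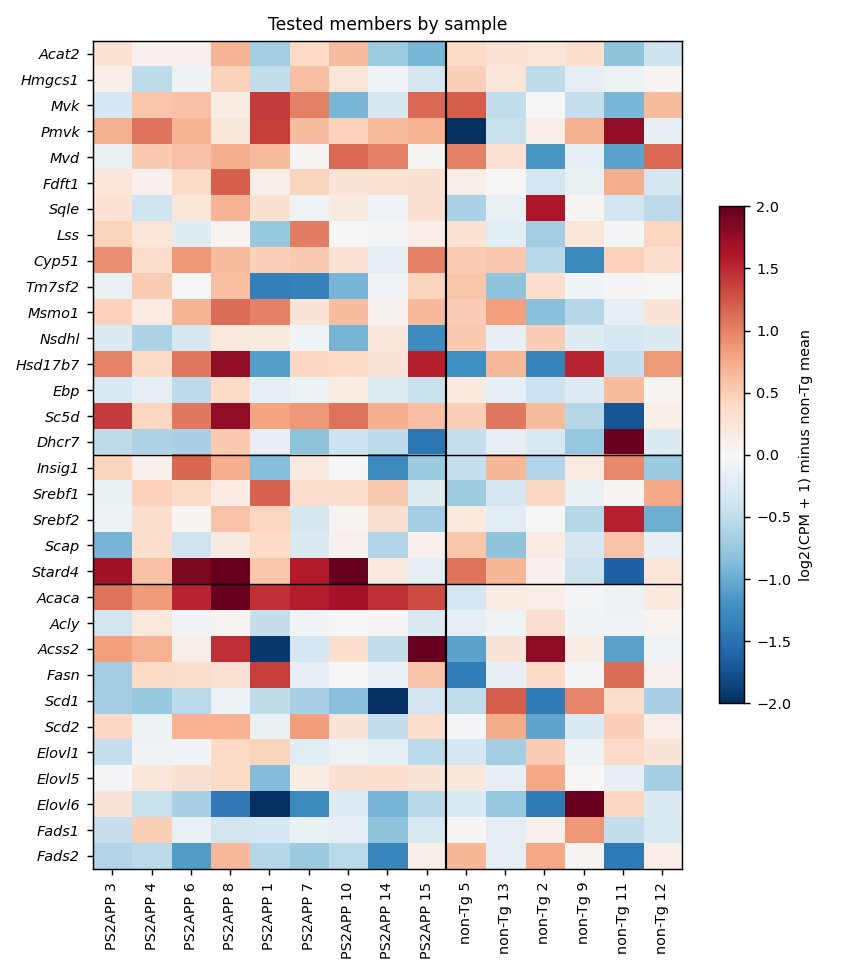
Log2(CPM + 1) of each member in each sample minus the non-Tg mean, with the colour limited to 2 in either direction and PS2APP columns left of non-Tg columns. Acaca is above the non-Tg mean in all PS2APP columns.

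Age did not separate the members within this narrow range. Between 15 and 14 months edgeR called 0 of the 13994 genes (1112, or 7.95%, at an unadjusted p under 0.05). The smallest p among the members were those of Insig1 (-0.79 ± 0.37, adjusted p = 0.619) and Sc5d (-0.65 ± 0.31, adjusted p = 0.629), both lower at 15 months. A change of the genotype effect with age was called for 0 genes (1038, or 7.42%, at an unadjusted p under 0.05). The smallest p were those of Elovl1 (-0.87 ± 0.39) and Pmvk (-2.34 ± 1.09), both with an edgeR adjusted p of 0.666. For Pmvk the 2 non-Tg samples at 14 months stood at 0 (sample 5) and 1.98 CPM (sample 13). In sample 5, 3 reads would be 0.831 CPM. For Acaca the effect differed by -0.14 between the ages (adjusted p = 0.961).

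Among 55 further genes of the pathways, chosen by role, 0 were called by edgeR. Of 20 tested sterol genes of 21, 2 were higher and 0 lower at an unadjusted p under 0.05, and the median log2 fold change was -0.034. Of 29 tested fatty acid genes of 34, 1 was higher and 0 lower, with a median of -0.11. Over all genes tested, 5.73% were higher and 5.95% lower at that unadjusted p. Npc2, which exports cholesterol from lysosomes, averaged 526.2 ± 119 CPM in PS2APP and 374 ± 109 CPM in non-Tg (0.49 ± 0.18, adjusted p = 0.241). Mbtps2, a protease that releases SREBP from the membrane, averaged 146 ± 38.3 CPM in PS2APP and 111 ± 42.6 CPM in non-Tg (0.41 ± 0.22, adjusted p = 0.472). Elovl7, an elongase of long chains, averaged 6.36 ± 6.87 CPM in PS2APP and 0.868 ± 1.01 CPM in non-Tg (2.89 ± 0.82, adjusted p = 0.105), with 23.1 CPM in PS2APP sample 15. DESeq2 called 2 of the 55, Elovl7 among them, and limma-voom called 1, Npc2.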

How the data were processed

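RNA was extracted from the sorted cells with a column kit, per the labels' protocols. The submitters' processing notes name GSNAP as aligner and GRCm38 as genome build. Strand and library kit are not given in the sources. Each sample's table gives, per the file headers, the count of uniquely aligned reads per NCBI Gene ID and an RPKM that the authors normalized by a size factor. The RefSeq GRCm38.p6 table matched 31049 of 36528 IDs and all 36 members.

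Counts were tested with edgeR 4.0.16 in R 4.3.3: 13994 genes passed filterByExpr, libraries were scaled by TMM, and the quasi-likelihood fit over the 15 samples had terms for age and genotype. A gene was called at a p under 0.05 after Benjamini-Hochberg adjustment over all tested genes. Standard errors are the log2 fold change over the square root of F. CPM are counts over TMM-scaled library sizes, and sample means of log2 CPM used a prior count of 2. DESeq2 1.42.0, limma 3.58.1 and the other alternatives are given at the end. The fits were tested on simulated data. Within groups, 51 sample pairs had a chi-square per degree of freedom of 9.98 to 67.5, so no pair was a repeat of 1 library. Shared 50-base windows were counted between each member's longest coding transcript and all other GENCODE transcripts.

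The members, lists, alternatives and tests were chosen with earlier results of these data known. All members are accounted for. Described in full were called members, the 5 with the smallest p in each branch, the 5 control genes, the highest 3 by RPKM in each branch, the 2 with the smallest p for age and for the interaction, and up to 4 other pathway genes, of which 1 is not reported here.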

Additional observations from a re-analysis of the deposited data

Results flagged for a closer look

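In 8 of 70 groups of samples examined, 1 sample lay far from the rest of its own group on the log2 CPM scale. Chance gives this in about 1 in 20 groups if their spread is normal. The groups share samples and are not independent. PS2APP sample 8 had 208 CPM of Fdft1, where the other PS2APP samples had 96.2 to 123 CPM, and a mean over the sterol branch of 4.21 log2 CPM, where the others had 3.52 to 3.76. Non-Tg sample 11 had 96.1 CPM of Dhcr7, where the other non-Tg samples had 13.6 to 21.1 CPM. Non-Tg sample 2 had 27.3 CPM of Sqle, where the others had 4.99 to 8.66 CPM. A further 3 lay low in PS2APP sample 1: Hsd17b7 at 1.91 CPM (others 6.48 to 20.4 CPM), Elovl5 at 30.4 CPM (others 54.6 to 73.2 CPM) and Elovl6 at 0 CPM (others 1.12 to 5.79 CPM). PS2APP sample 14 had 2.24 CPM of Scd1, where the others had 9.81 to 16.8 CPM. The cause of none of these was tested.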

How the results depend on the processing

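Acaca was called without any 1 of the 15 samples (1.45 to 1.62) and in 15 of 17 other fits. It was not called at 14 months alone (1.69) or with the neuron score as a covariate (1.01), so 0 members were called there, against 1 in every other fit run, among them all those without a sample (1 to 1). Genes called in all, 165 in the reported fit, were 118 to 188 without a sample, 648 with no count filter, 390 with DESeq2, 50 at 14 and 65 at 15 months alone, 81 without the 3 libraries low in Xist, and 20 and 86 with the neuron and oligodendrocyte scores as covariates. The sterol median was 0.14 to 0.27 without a sample and -0.074 with the neuron score, and that of the fatty acid branch -0.14 to 0.014 without a sample. The difference of these medians was 0.16 to 0.35 without a sample, -0.015 at 14 months and -0.029 with the neuron score. Signs turned for members that were not called. At 14 months they were Insig1 0.48, Srebf2 0.27, Dhcr7 0.11, Elovl6 0.15, Fads1 0.038, Acly 0.14 and Elovl1 0.53, and at 15 months Pmvk -0.027. With limma-voom they were Insig1 0.29 and Srebf2 0.33, and with no age term Insig1 0.0083. With the neuron score they were Msmo1 -0.026, Fdft1 -0.068 and Fads1 0.0065, and with the oligodendrocyte score Fads1 0.11 and Insig1 0.19. Leaving out a sample gave ranges of -0.21 to 0.014 for Elovl1, -0.29 to 0.075 for Scap, -0.44 to 0.12 for Insig1 and -0.28 to 0.38 for Srebf2. The cause of these changes was not tested. Cell type scores as covariates, log2(RPKM + 1) values, and leaving out the libraries low in Xist or the 4 high in immediate early genes were chosen after seeing the data. No paired analysis was possible because the groups share no sample numbers. Depth limits Elovl6, Fads2, Tm7sf2, Mvd, Mvk and Stard4 among others, which averaged under 10 CPM.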
